A study of Homo sapiens with 24 samples.

Results

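Expression of 43 DNA repair genes was followed in 2 human acute myeloid leukaemia cell lines treated with RMC-7977, an inhibitor of the active, GTP-bound form of RAS proteins. The genes were chosen by symbol from the Fanconi anaemia pathway, homologous recombination and the repair and checkpoint machinery around them, and all 43 were among the 13033 genes of the expression table. Poly(A) RNA-seq libraries came from OCI-AML3 (OCIAML-3 in the labels, genotype NRAS Q61L) and Molm-14 (genotype FLT3-ITD), each treated with 25 nM RMC-7977 for 2 h or 24 h or with the solvent DMSO. Each of the 6 groups had 4 libraries, except OCI-AML3 at 24 h with 3, because the third library of that group was not analysed here. Per the labels all libraries belong to the same batch, and neither line has more than 1 DMSO group, for which no time is stated. The 2 h and 24 h libraries of a line are therefore set against the same DMSO libraries. With no DMSO group matched to each time, drug and time in culture cannot be told apart in these comparisons. Whether replicates were grown as separate cultures is not stated, and p-values accordingly reflect variation among libraries, which may be technical.

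The Fanconi pathway repairs DNA strands that are covalently crosslinked to each other. Its core complex is a ubiquitin ligase that marks the FANCI-FANCD2 pair on chromatin at stalled replication forks, after which nucleases, homologous recombination and other repair steps restore the DNA. Homologous recombination copies the intact sister chromatid: broken ends are resected to single strands, BRCA1, PALB2 and BRCA2 prepare these for strand exchange, and motor proteins and the BLM complex carry the exchange to its end. A sister chromatid exists only after replication, and many of these genes are transcribed mainly in late G1 and S phase under E2F factors, whereas end-joining and single-strand break repair act throughout the cell cycle. On such general knowledge, 23 of the genes were grouped as cell-cycle-linked and the other 20 as not.

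Promoter sequences are given for 6 of the genes that show the contrast, with the E2F words in capitals. The RefSeq promoter table (GRCh38.p14, 250 bases before to 50 after an annotated start) held 56 windows of 37 of the genes, and 6 genes had no window (FANCI, RAD54B, RMI2, NBN, XRCC5 and PRKDC). Words searched on both strands were TTTCCCGC, TTTCGCGC, TTTGCCGC and TTTGGCGC for E2F, CCAAT for the CCAAT box and TTTGAA for the CHR element, and none of these contains another. Windows of EXO1, FANCD2 and XRCC2, which are cell-cycle-linked and fell in OCI-AML3, and of XRCC6, which is not cell-cycle-linked and also fell, hold an E2F word. The first listed windows of ATM and LIG4, the genes that rose in OCI-AML3, hold none.
EXO1 (chr1:241847954-241848253, plus strand): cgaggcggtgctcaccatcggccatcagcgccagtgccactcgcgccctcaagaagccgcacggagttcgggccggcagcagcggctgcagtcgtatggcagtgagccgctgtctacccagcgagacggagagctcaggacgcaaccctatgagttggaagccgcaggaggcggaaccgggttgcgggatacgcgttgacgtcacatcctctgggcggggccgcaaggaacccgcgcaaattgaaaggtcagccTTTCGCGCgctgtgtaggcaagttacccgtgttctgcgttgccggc
FANCD2 (chr3:10026187-10026486, plus strand): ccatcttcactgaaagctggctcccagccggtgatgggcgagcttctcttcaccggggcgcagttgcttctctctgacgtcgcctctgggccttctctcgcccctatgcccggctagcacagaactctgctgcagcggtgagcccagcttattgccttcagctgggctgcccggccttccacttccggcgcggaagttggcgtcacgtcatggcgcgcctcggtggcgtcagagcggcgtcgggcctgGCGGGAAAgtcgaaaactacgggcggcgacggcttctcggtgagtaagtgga
XRCC2 (chr7:152676092-152676391, minus strand): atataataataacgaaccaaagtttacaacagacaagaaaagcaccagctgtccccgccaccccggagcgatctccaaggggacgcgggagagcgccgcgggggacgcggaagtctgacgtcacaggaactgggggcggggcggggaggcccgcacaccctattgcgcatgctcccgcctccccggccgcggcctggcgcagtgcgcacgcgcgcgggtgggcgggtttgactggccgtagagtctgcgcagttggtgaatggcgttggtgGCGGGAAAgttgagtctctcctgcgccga
XRCC6 (chr22:41621045-41621344, plus strand): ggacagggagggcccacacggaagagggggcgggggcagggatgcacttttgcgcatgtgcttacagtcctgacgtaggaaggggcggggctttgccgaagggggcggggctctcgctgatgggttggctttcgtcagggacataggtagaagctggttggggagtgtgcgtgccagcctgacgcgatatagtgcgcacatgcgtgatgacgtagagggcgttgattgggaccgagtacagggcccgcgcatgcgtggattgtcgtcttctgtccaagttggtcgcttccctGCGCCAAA
ATM (chr11:108222817-108223116, plus strand): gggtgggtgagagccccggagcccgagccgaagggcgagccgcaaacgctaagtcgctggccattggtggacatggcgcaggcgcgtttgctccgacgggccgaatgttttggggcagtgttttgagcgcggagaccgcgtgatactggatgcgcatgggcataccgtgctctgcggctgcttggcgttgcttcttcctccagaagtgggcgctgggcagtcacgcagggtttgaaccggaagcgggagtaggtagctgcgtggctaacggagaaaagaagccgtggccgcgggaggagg
LIG4 (chr13:108218300-108218599, minus strand): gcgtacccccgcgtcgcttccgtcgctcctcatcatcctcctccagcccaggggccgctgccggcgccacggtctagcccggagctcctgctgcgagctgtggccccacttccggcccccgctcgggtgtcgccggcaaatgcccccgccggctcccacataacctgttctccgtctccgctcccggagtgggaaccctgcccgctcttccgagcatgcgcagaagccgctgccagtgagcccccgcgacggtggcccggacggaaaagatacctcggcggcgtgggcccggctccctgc
Sequences run 5′ to 3′ on the strand of the gene. With the start site counted as base 1, the capitals begin at base 5 in EXO1, 22 in XRCC2 and 43 in XRCC6, and 2 bases before the start site in FANCD2. An E2F word was found in 7 of 20 cell-cycle-linked genes with a window (35%: EXO1, MSH6, FANCD2, TOPBP1, XRCC2, RMI1 and FANCA) and in 3 of the other 17 (17.6%: PMS2, FANCC and XRCC6), against 6.67% of 10440 genes of the expression table and 3.99% of 27305 genes of the promoter table. A CCAAT box was found in 50% of the cell-cycle-linked genes, 58.8% of the others and 43% of the genes of the expression table. The CHR word was found in 5% of the cell-cycle-linked genes, 17.6% of the others and 13.8% of the genes of the expression table. RAD54L, BRCA1, CHEK1 and BLM, all of them called lower at 24 h in OCI-AML3, have no E2F word in their windows, and PMS2, which has one in both of its windows, was called in no drug comparison. A match to these letters is a description of the sequence and not evidence of binding.

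Levels are in CPM (read counts scaled to an effective library size), from the deposited log2 CPM. They compare libraries within a gene, not genes with each other, since CPM is not corrected for length. CPM summed over all genes ran from 915890.5 (OCI-AML3 24 h replicate 2) to 1059614 (Molm-14 DMSO replicate 4). The values are thus not scaled to library totals alone. Effective library sizes recovered from the values ran from 15.4 to 22.4 M reads. A set of 5 transcripts that follow RAS signalling (DUSP6, SPRY4, EGR1, CCND1 and MYC) fell at 2 h in both lines, 5 of 5 in each. Falls here are of at least 2-fold at an adjusted p below 0.05 in limma. At 24 h 5 of 5 were lower by that rule in OCI-AML3 and 3 of 5 in Molm-14. In Molm-14 at 24 h the log2 difference from DMSO was -0.91 for MYC, under 2-fold, and -0.05 for DUSP6. All 12 myeloid markers were measured, and their summed level was 6200 to 6860 CPM at 2 h, 11700 to 12200 CPM at 24 h and 5170 to 5890 CPM in DMSO in OCI-AML3, and 2960 to 3320, 3350 to 3710 and 2410 to 2570 CPM in the same groups of Molm-14. At 24 h, 4 of these markers rose and 1 fell in OCI-AML3, where 18.4% of all genes were called higher and 17.1% lower. In Molm-14, 3 rose and 1 fell, where the shares of all genes were 11.4% and 6.57%. Abundant genes weigh most in the sums. In OCI-AML3, LYZ averaged 3793 CPM at 24 h and 574 CPM in DMSO, and CD14, the marker that fell, 0.32 and 3.40 CPM. The part of these marker changes in the results below was not tested. Among markers of other cell types, 3 of 10 lymphoid, 1 of 10 erythroid and platelet, and 3 of 10 epithelial and stromal genes were in the table. Their sums reached at most 49.9, 12.8 and 174 CPM in any library. The sum of 174 CPM was in Molm-14 at 2 h, where PECAM1 alone averaged 164 CPM.

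After 24 h of RMC-7977 most of the repair genes were lower, and more so in OCI-AML3 than in Molm-14. Changes are given relative to DMSO, and a gene was called when its adjusted p in limma was below 0.05 and it changed at least 2-fold. In OCI-AML3 at 24 h, 26 of the 43 genes fell and 2, ATM and LIG4, rose, where 17.1% of all genes were called lower and 18.4% higher. In Molm-14 at 24 h, 10 fell and 0 rose, where 6.57% of all genes were called lower and 11.4% higher. The 10 that fell in Molm-14 (FANCB, FANCI, BRCA1, XRCC2, RAD51AP1, RAD54L, RBBP8, EXO1, CHEK1 and XRCC6) also fell in OCI-AML3. When libraries were scaled to their totals, 23 genes were called lower in OCI-AML3 and 8 in Molm-14: BRIP1 (-0.92), TOPBP1 (-0.95) and RMI1 (-0.85) were then under 2-fold in OCI-AML3, and FANCI (-0.99) and XRCC6 (-0.97) in Molm-14. The median log2 fold change over the 43 genes was -1.28 in OCI-AML3 and -0.72 in Molm-14, against 0.01 and 0 over all genes. Bulk RNA cannot tell fewer cells that transcribe a gene from less of its RNA per cell. With libraries scaled to their totals, the median of all genes in OCI-AML3 at 24 h is 0.18, against 0.01, and the calls over all genes become 2889 higher and 1820 lower, against 2392 higher and 2228 lower.

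**Figure D1:**
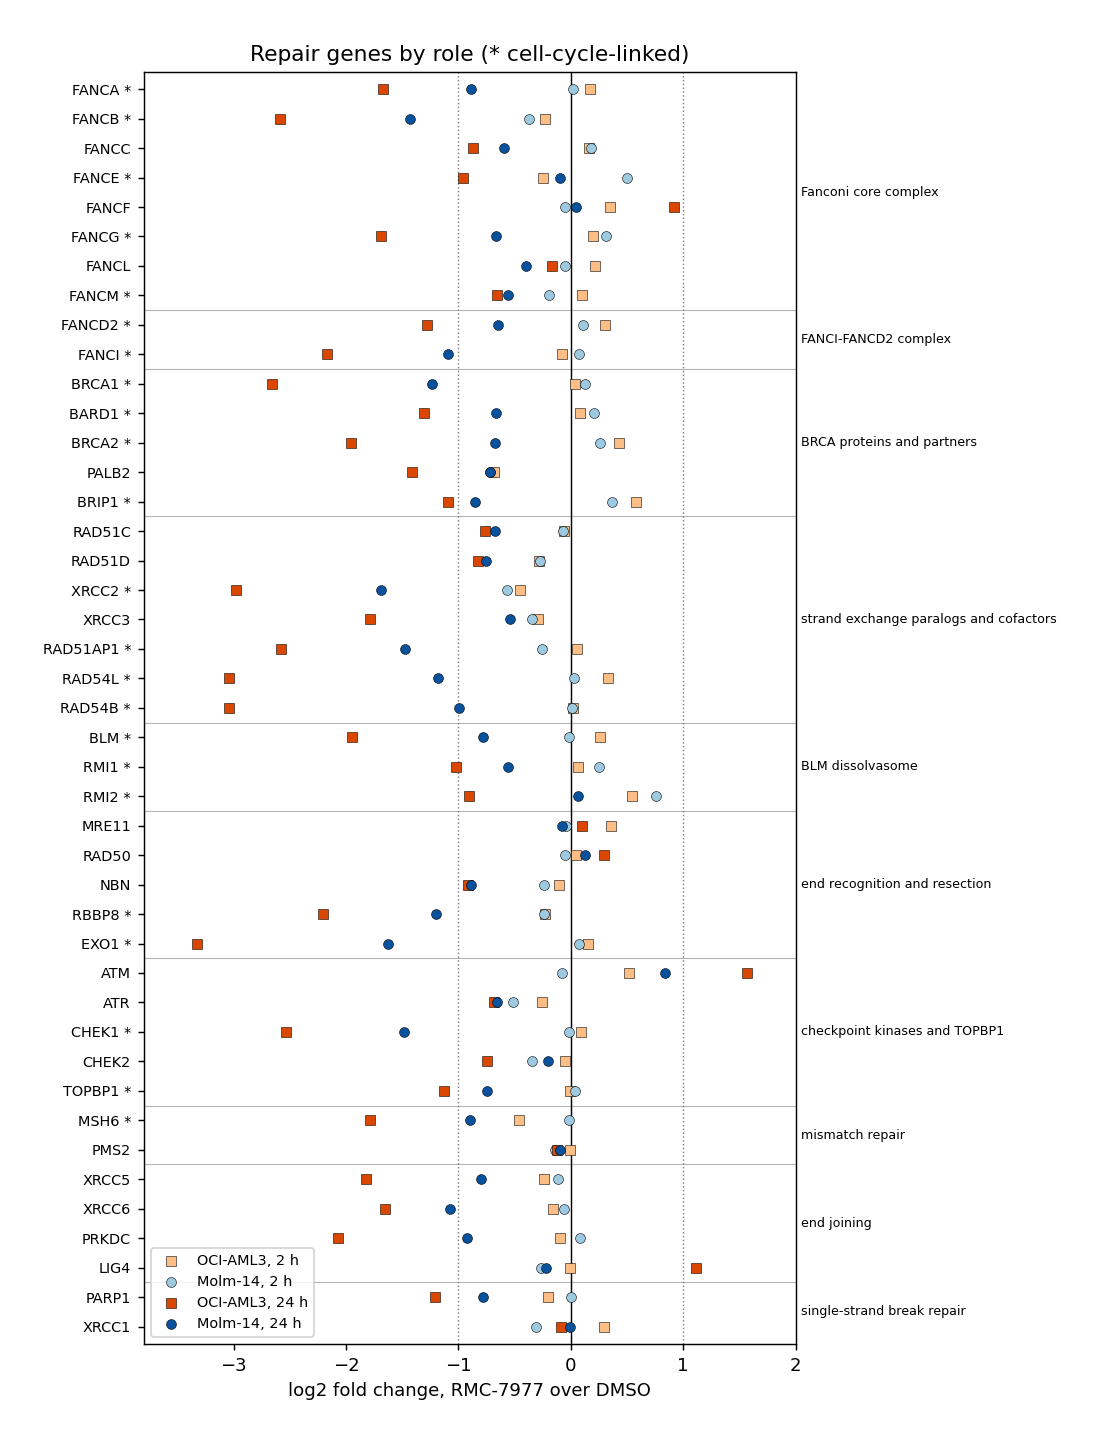
Log2 fold change of the 43 genes against DMSO (horizontal axis), grouped by role down the page, at 2 h and 24 h in each line. The 24 h points of most cell-cycle-linked genes lie left of the 2-fold line in OCI-AML3, down to -3.33 for EXO1, while ATM and LIG4 lie right of it and the 2 h points lie within it.

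The fall was deeper and more frequent in the cell-cycle-linked group. In OCI-AML3 at 24 h, 20 of 23 cell-cycle-linked genes fell with a median of -1.95, against 6 of 20 other genes (PALB2, XRCC3, XRCC5, XRCC6, PRKDC and PARP1) with a median of -0.75. The 3 cell-cycle-linked genes that were not called were FANCE at -0.96 ± 0.06, FANCM at -0.66 ± 0.09 and RMI2 at -0.90 ± 0.09 (log2 ± SE). In Molm-14 at 24 h, 9 of 23 cell-cycle-linked genes fell, with a median of -0.89, and 1 of 20 others (XRCC6; 0 with libraries scaled to their totals) fell, with a median of -0.57. Not counting fold size, 23 of 23 cell-cycle-linked genes were below DMSO in OCI-AML3 and 21 of 23 in Molm-14 at an adjusted p below 0.05, against 13 of 20 and 14 of 20 other genes. Under that rule 42% and 38.6% of all genes were lower. The 2 groups of genes were drawn with earlier results of these data known, so their difference is a description. With a narrower cell-cycle-linked group of 13 genes, all 13 fell in OCI-AML3 (median -1.96) and 6 fell in Molm-14 (median -0.90), against 13 and 4 of the remaining 30.

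At 2 h no repair gene changed 2-fold in either line, while 3.35% and 3.23% of all genes were called lower and higher in OCI-AML3 and 2.98% and 4.3% in Molm-14. Limma at an unadjusted p below 0.05 found 27 of the 43 genes shifted in OCI-AML3 and 25 in Molm-14, where 65.7% and 62.7% of all genes passed, and limma voom on recovered reads also called 0. At an adjusted p below 0.05 without a fold limit, 14 were higher and 11 lower in OCI-AML3 and 10 higher and 15 lower in Molm-14, where the shares of all genes were 31.4% and 30.8% and 28.7% and 30.8%. The lowest value in both lines was that of PALB2, the bridge between BRCA1 and BRCA2, which was chosen after its values were seen. PALB2 had 15.9, 16.9, 16.7 and 15.7 CPM at 2 h, 7.81, 10.7 and 11.5 CPM at 24 h and 26.3, 27.5, 24 and 27 CPM in DMSO in OCI-AML3. Molm-14 libraries gave PALB2 values of 14.6, 15.1, 18.8 and 16.3 CPM at 2 h, 19, 14.2, 14.6 and 17.4 CPM at 24 h and 28.5, 24.5, 28.4 and 25.1 CPM in DMSO. All PALB2 libraries at 2 h and at 24 h lay below every DMSO library in both lines. Its log2 difference at 2 h was -0.69 ± 0.10 in OCI-AML3 (adjusted p = 8.13e-07) and -0.72 ± 0.10 in Molm-14 (adjusted p = 3.38e-07), and at 24 h it was -1.41 ± 0.11 and -0.72 ± 0.10, a call in OCI-AML3. XRCC2 had 2 h differences of -0.45 ± 0.08 in OCI-AML3 and -0.57 ± 0.08 in Molm-14. The highest 2 h values were those of BRIP1 in OCI-AML3 (0.58 ± 0.06, against 0.37 ± 0.06 in Molm-14) and RMI2 in Molm-14 (0.76 ± 0.08, against 0.54 ± 0.08 in OCI-AML3), also chosen after their values were seen.

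In the Fanconi core complex, 3 of 8 genes fell in OCI-AML3 at 24 h and 1 fell in Molm-14. FANCA, a core subunit that pairs with FANCG, had 158, 153, 148 and 164 CPM at 2 h, 43.3, 44.2 and 43.4 CPM at 24 h and 144, 138, 139.5 and 134 CPM in DMSO in OCI-AML3. Molm-14 libraries gave FANCA values of 132, 131, 116 and 118 CPM at 2 h, 69.3, 65.6, 67.5 and 62.3 CPM at 24 h and 124, 129, 116 and 122 CPM in DMSO. For FANCA, the 24 h libraries lay below every DMSO library in both lines, and the 2 h libraries lay above every DMSO library in OCI-AML3 and overlapped them in Molm-14. FANCA fell by 1.67 ± 0.05 on the log2 scale in OCI-AML3 at 24 h (adjusted p = 2.61e-23), and its log2 difference in Molm-14, -0.89 ± 0.05, did not reach 2-fold (adjusted p = 6.84e-17). In OCI-AML3, FANCG, the adaptor that joins FANCA to the complex, was at 61.7, 63.6, 59.9 and 62.9 CPM at 2 h, 16.2, 16 and 18.3 CPM at 24 h and 54.8, 54.1, 56.1 and 51.2 CPM in DMSO. FANCG in Molm-14 was at 45.7, 43.4, 44.8 and 45.4 CPM at 2 h, 24.3, 23, 22.9 and 20.7 CPM at 24 h and 38.3, 34.6, 36.9 and 34.8 CPM in DMSO. The FANCG values of the 24 h libraries lay below every DMSO library in both lines, whereas the 2 h libraries lay above every DMSO library in both lines. At 24 h FANCG fell by 1.69 ± 0.06 (log2, adjusted p = 8.28e-22) in OCI-AML3, against a log2 difference of -0.67 ± 0.05 in Molm-14 that was under 2-fold (adjusted p = 1.89e-12). FANCB, part of the catalytic module with the ligase FANCL, fell by 2.59 ± 0.14 in OCI-AML3, at means of 1.73 CPM at 24 h and 10.3 CPM in DMSO, and by 1.43 ± 0.13 in Molm-14, at means of 5.11 and 13.7 CPM. FANCC, FANCE and FANCM, which link the complex to its substrate and to DNA, were between -0.96 and -0.66 in OCI-AML3 and between -0.59 and -0.09 in Molm-14, none of them a call. FANCL, the ligase subunit itself, was at -0.17 ± 0.05 in OCI-AML3, or 0.0039 with libraries scaled to their totals, and -0.40 ± 0.05 in Molm-14. FANCF was above DMSO in OCI-AML3, at 0.92 ± 0.10 (adjusted p = 6.47e-10), under 2-fold (1.09 and a call with libraries scaled to their totals), and was at 0.05 ± 0.09 in Molm-14 (adjusted p = 0.624).

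Both genes of the FANCI-FANCD2 pair, the substrate of the core ligase, fell in OCI-AML3 at 24 h. FANCI, the partner that clamps FANCD2 on DNA, had 109, 109.9, 113 and 104 CPM at 2 h, 24.7, 28.1 and 24.2 CPM at 24 h and 115, 115, 112 and 118 CPM in DMSO in OCI-AML3. Molm-14 libraries gave FANCI values of 241, 250.3, 245 and 241 CPM at 2 h, 107, 111, 109 and 108 CPM at 24 h and 232, 232, 237 and 226 CPM in DMSO. For FANCI, the 24 h libraries lay below every DMSO library in both lines, and the 2 h libraries overlapped the DMSO libraries in OCI-AML3 and lay above every DMSO library in Molm-14. FANCI fell by 2.17 ± 0.04 on the log2 scale in OCI-AML3 (adjusted p = 1.7e-27) and by 1.09 ± 0.04 in Molm-14 (adjusted p = 2.13e-20) at 24 h. In OCI-AML3, FANCD2, the subunit whose ubiquitination marks pathway activation, was at 109, 107, 107 and 105 CPM at 2 h, 35.4, 36.3 and 35.2 CPM at 24 h and 86.9, 87.3, 83.4 and 89 CPM in DMSO. FANCD2 in Molm-14 was at 92.3, 97.7, 94.6 and 95.4 CPM at 2 h, 57.3, 58.1, 55.6 and 54.4 CPM at 24 h and 89, 88, 89.7 and 86.6 CPM in DMSO. The FANCD2 values of the 24 h libraries lay below every DMSO library in both lines, whereas the 2 h libraries lay above every DMSO library in both lines. At 24 h FANCD2 fell by 1.28 ± 0.04 (log2, adjusted p = 6.59e-23) in OCI-AML3, against a log2 difference of -0.65 ± 0.04 in Molm-14 that was under 2-fold (adjusted p = 5.75e-16).

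All 5 genes of the BRCA group fell in OCI-AML3 at 24 h (4 with libraries scaled to their totals), and BRCA1 also fell in Molm-14. BRCA1, a ubiquitin ligase that promotes resection and recruits PALB2, had 96.6, 104, 103 and 96.5 CPM at 2 h, 15.1, 15.3 and 15.9 CPM at 24 h and 96.5, 99.7, 90.5 and 104 CPM in DMSO in OCI-AML3. Molm-14 libraries gave BRCA1 values of 101, 110.4, 108 and 108 CPM at 2 h, 39.9, 42.6, 42.2 and 42.5 CPM at 24 h and 99.3, 96.2, 102 and 96.1 CPM in DMSO. For BRCA1, the 24 h libraries lay below every DMSO library in both lines, and the 2 h libraries overlapped the DMSO libraries in both lines. BRCA1 fell by 2.66 ± 0.05 on the log2 scale in OCI-AML3 (adjusted p = 1.04e-28) and by 1.23 ± 0.04 in Molm-14 (adjusted p = 9.51e-21) at 24 h. In OCI-AML3, BRCA2, which acts with PALB2 in strand exchange, was at 57.8, 62.3, 59 and 52.3 CPM at 2 h, 10.6, 11.2 and 11.3 CPM at 24 h and 41.1, 43, 41 and 46.8 CPM in DMSO. BRCA2 in Molm-14 was at 73.7, 76.3, 77.7 and 77.1 CPM at 2 h, 39.2, 37.9, 42.2 and 40.5 CPM at 24 h and 63.4, 63.3, 69 and 59.3 CPM in DMSO. The BRCA2 values of the 24 h libraries lay below every DMSO library in both lines, whereas the 2 h libraries lay above every DMSO library in both lines. At 24 h BRCA2 fell by 1.96 ± 0.06 (log2, adjusted p = 4.4e-23) in OCI-AML3, against a log2 difference of -0.67 ± 0.06 in Molm-14 that was under 2-fold (adjusted p = 3.74e-12). BARD1, the obligate partner of BRCA1, fell by 1.31 ± 0.09 in OCI-AML3 and was at -0.67 ± 0.08 in Molm-14. BRIP1, a helicase bound to BRCA1, fell by 1.09 ± 0.07 in OCI-AML3 (-0.92 and no call with libraries scaled to their totals) and was at -0.85 ± 0.06 in Molm-14.

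Among all 43 genes the deepest falls in OCI-AML3, after that of EXO1, were those of RAD54L, RAD54B and XRCC2, all from the paralogs and cofactors of strand exchange. Of these 7 genes, 5 fell in OCI-AML3 with a group median of -2.58, and 3 fell in Molm-14 with a group median of -0.99. RAD54L, a motor protein that drives strand invasion, had 60.3, 58.5, 57.5 and 61.6 CPM at 2 h, 5.55, 6.01 and 5.67 CPM at 24 h and 50.7, 47, 47.8 and 44.2 CPM in DMSO in OCI-AML3. Molm-14 libraries gave RAD54L values of 48.1, 45.3, 44 and 45.5 CPM at 2 h, 19, 20.4, 20.3 and 19.5 CPM at 24 h and 45.9, 45.8, 43.8 and 43.7 CPM in DMSO. For RAD54L, the 24 h libraries lay below every DMSO library in both lines, and the 2 h libraries lay above every DMSO library in OCI-AML3 and overlapped them in Molm-14. RAD54L fell by 3.05 ± 0.05 on the log2 scale in OCI-AML3 (adjusted p = 6.79e-29) and by 1.18 ± 0.05 in Molm-14 (adjusted p = 4.74e-19) at 24 h. In OCI-AML3, RAD54B, a related motor protein, was at 22.3, 25.4, 26.2 and 22.4 CPM at 2 h, 3.25, 2.88 and 2.54 CPM at 24 h and 23.3, 23.9, 23.1 and 24.4 CPM in DMSO. RAD54B in Molm-14 was at 17.2, 18.8, 19 and 20.1 CPM at 2 h, 9.7, 8.36, 10.1 and 9.37 CPM at 24 h and 19, 16.6, 20.1 and 19.2 CPM in DMSO. The RAD54B values of the 24 h libraries lay below every DMSO library in both lines, whereas the 2 h libraries overlapped the DMSO libraries in both lines. RAD54B shares 59.1% of its exonic bases with FSBP on the same strand, so its values are uncertain. At 24 h RAD54B fell by 3.04 ± 0.09 (log2, adjusted p = 1.23e-23) in OCI-AML3, against a log2 difference of -0.99 ± 0.08 in Molm-14 that was under 2-fold (adjusted p = 3.75e-12) and reached it without Molm-14 DMSO replicate 2 (-1.05), 24 h replicate 1 (-1.01) or 24 h replicate 3 (-1.03). RAD51AP1, a stimulator of strand pairing, had 35.6, 37.3, 32 and 33.7 CPM at 2 h, 6.73, 5.18 and 4.97 CPM at 24 h and 31.3, 33, 34.7 and 34.5 CPM in DMSO in OCI-AML3. Molm-14 libraries gave RAD51AP1 values of 40.3, 43.2, 45.5 and 47.4 CPM at 2 h, 18.8, 18.2, 20.03 and 18.4 CPM at 24 h and 55, 51.4, 50.2 and 53.2 CPM in DMSO. For RAD51AP1, the 24 h libraries lay below every DMSO library in both lines, and the 2 h libraries overlapped the DMSO libraries in OCI-AML3 and lay below every DMSO library in Molm-14. RAD51AP1 fell by 2.58 ± 0.08 on the log2 scale in OCI-AML3 (adjusted p = 3.44e-23) and by 1.48 ± 0.07 in Molm-14 (adjusted p = 1.57e-17) at 24 h.

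The paralog genes XRCC2, XRCC3, RAD51C and RAD51D, whose products act together in strand exchange, were divided. In OCI-AML3, XRCC2, the partner of RAD51D, was at 46.8, 47.5, 50.5 and 41.4 CPM at 2 h, 7.5, 7.71 and 9.15 CPM at 24 h and 62.2, 66.5, 55.7 and 71 CPM in DMSO. XRCC2 in Molm-14 was at 31, 33.6, 32.6 and 29.6 CPM at 2 h, 15, 15.3, 13.6 and 14.4 CPM at 24 h and 50.8, 43.9, 49.1 and 44.4 CPM in DMSO. The XRCC2 values of the 24 h and the 2 h libraries lay below every DMSO library in both lines. At 24 h XRCC2 fell by 2.97 ± 0.08 (log2, adjusted p = 1.95e-24) in OCI-AML3 and by 1.69 ± 0.08 (adjusted p = 1.2e-18) in Molm-14. XRCC3, the partner of RAD51C, had 50.6, 50.1, 49.7 and 55.2 CPM at 2 h, 19, 18.4 and 17.2 CPM at 24 h and 66.8, 62.7, 67.5 and 55.5 CPM in DMSO in OCI-AML3. Molm-14 libraries gave XRCC3 values of 53.1, 53.4, 54.5 and 53 CPM at 2 h, 47.4, 47.5, 48.2 and 43 CPM at 24 h and 65.2, 68.5, 68.1 and 69.4 CPM in DMSO. For XRCC3, the 24 h and the 2 h libraries lay below every DMSO library in both lines. XRCC3 fell by 1.79 ± 0.06 on the log2 scale in OCI-AML3 at 24 h (adjusted p = 2.56e-22), and its log2 difference in Molm-14, -0.54 ± 0.05, did not reach 2-fold (adjusted p = 2.57e-10). In OCI-AML3, RAD51C, shared by both paralog complexes, was at 38.9, 38.2, 41.8 and 34.5 CPM at 2 h, 24.2, 24.7 and 21.6 CPM at 24 h and 39, 38.9, 41.7 and 40.1 CPM in DMSO. RAD51C in Molm-14 was at 26.7, 28.1, 28.4 and 24.2 CPM at 2 h, 18.1, 18.5, 16.3 and 17.5 CPM at 24 h and 30.6, 26.8, 26.7 and 28.6 CPM in DMSO. The RAD51C values of the 24 h libraries lay below every DMSO library in both lines, whereas the 2 h libraries overlapped the DMSO libraries in both lines. At 24 h the log2 difference of RAD51C from DMSO was -0.77 ± 0.07 (adjusted p = 2.8e-11) in OCI-AML3 and -0.68 ± 0.07 (adjusted p = 1.06e-10) in Molm-14, both under 2-fold. RAD51D, a member of the complex with XRCC2, had 39.1, 40.8, 39.4 and 40.1 CPM at 2 h, 26.7, 27 and 28.2 CPM at 24 h and 50.8, 48.8, 45.5 and 48.7 CPM in DMSO in OCI-AML3. Molm-14 libraries gave RAD51D values of 34.4, 32.7, 34 and 31.4 CPM at 2 h, 25.2, 24.1, 23.9 and 21.8 CPM at 24 h and 38.1, 40.2, 41.3 and 40.2 CPM in DMSO. For RAD51D, the 24 h and the 2 h libraries lay below every DMSO library in both lines. Log2 differences of RAD51D from DMSO at 24 h were -0.83 ± 0.05 in OCI-AML3 (adjusted p = 1.12e-14) and -0.75 ± 0.05 in Molm-14 (adjusted p = 2.84e-14), neither of them a 2-fold change. XRCC2 and XRCC3 passed the 2-fold limit in OCI-AML3, while RAD51C and RAD51D, present in the same complexes, did not. The XRCC3 values are uncertain, because 76.7% of its exonic bases overlap KLC1 on the opposite strand.

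**Figure D2:**
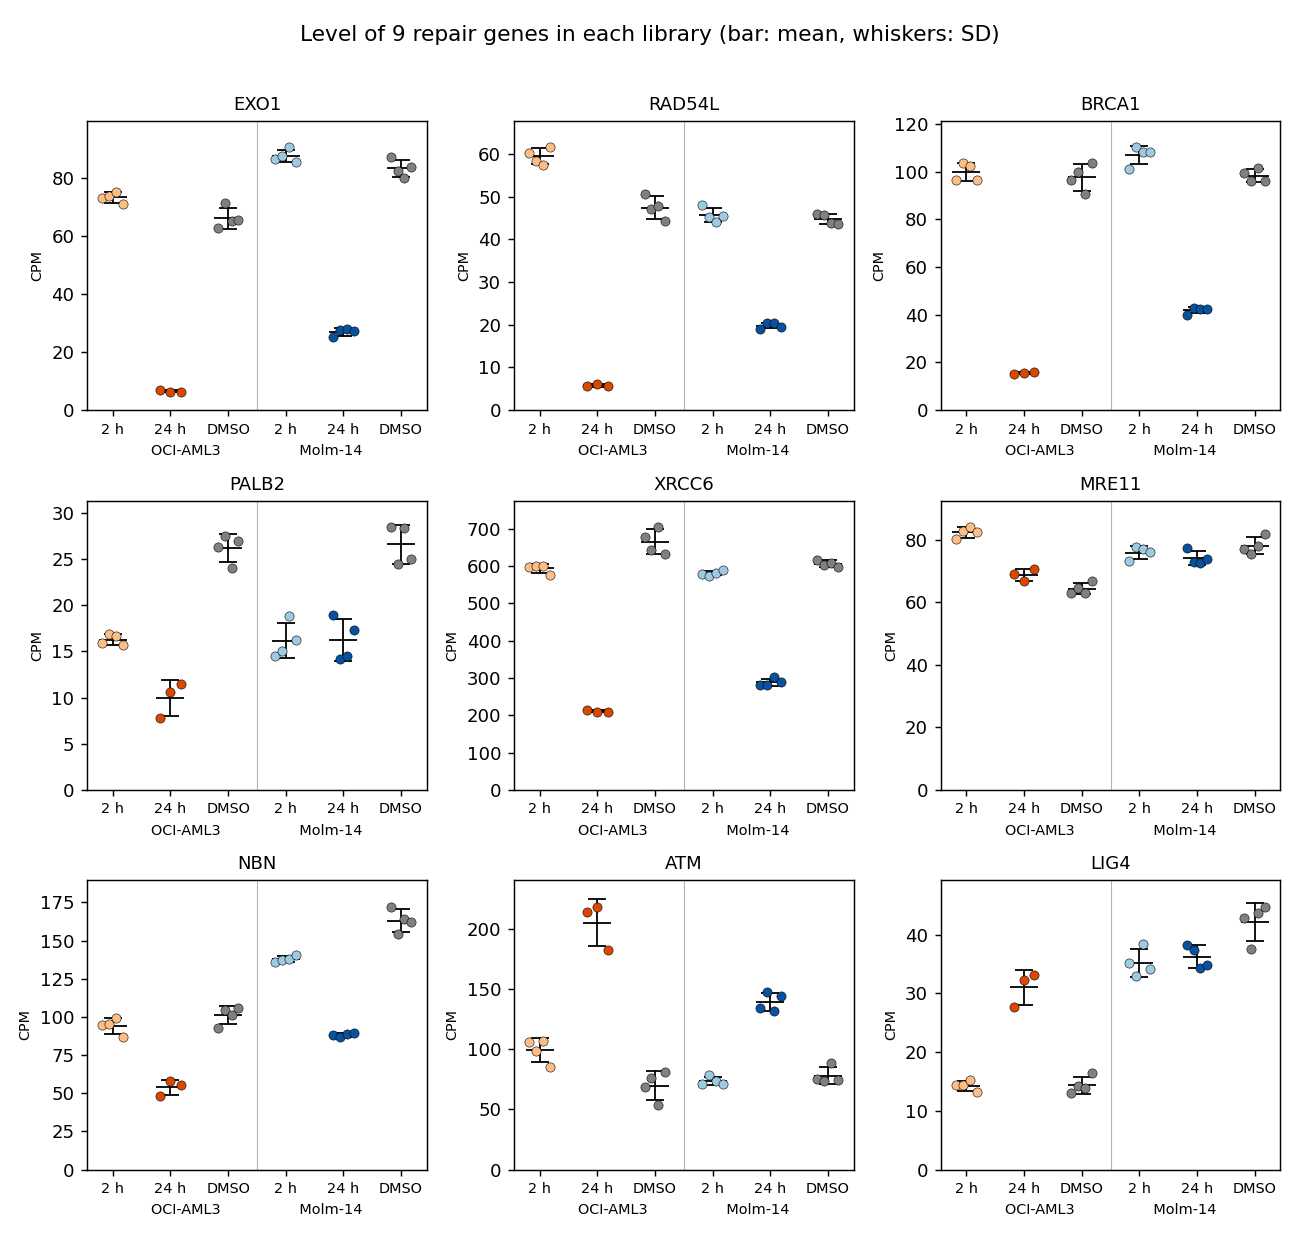
CPM of each library (points), with group means and SD bars, for selected repair genes; groups run 2 h, 24 h and DMSO in OCI-AML3 and then in Molm-14, and each panel has its own axis from 0. The 24 h points of EXO1, RAD54L and BRCA1 sit below all DMSO points in both lines, and those of ATM sit above them.

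In the BLM complex, which dissolves joined chromosomes after recombination, 2 of 3 genes (1 with libraries scaled to their totals) fell in OCI-AML3 and 0 in Molm-14. In OCI-AML3, BLM, the helicase of the complex, was at 89.2, 91.5, 95.4 and 89.3 CPM at 2 h, 19.7, 21.3 and 18.5 CPM at 24 h and 75.7, 74, 75 and 81.4 CPM in DMSO. BLM in Molm-14 was at 102, 104, 106 and 109.7 CPM at 2 h, 61.8, 59.8, 66.8 and 61.2 CPM at 24 h and 111, 100, 109 and 108 CPM in DMSO. The BLM values of the 24 h libraries lay below every DMSO library in both lines, whereas the 2 h libraries lay above every DMSO library in OCI-AML3 and overlapped them in Molm-14. At 24 h BLM fell by 1.95 ± 0.05 (log2, adjusted p = 1.26e-24) in OCI-AML3, against a log2 difference of -0.78 ± 0.05 in Molm-14 that was under 2-fold (adjusted p = 3.9e-15). RMI1, a scaffold of the complex, fell by 1.02 ± 0.06 in OCI-AML3, which went under 2-fold with a pseudocount of 1 CPM (-0.99), with median-of-ratios scaling (-0.95), with libraries scaled to their totals (-0.85), and when DMSO replicate 4 (-0.99) or 24 h replicate 1 (-0.98) was left out, and was at -0.56 ± 0.06 in Molm-14. RMI2, its small partner, was at -0.90 ± 0.09 in OCI-AML3 and 0.06 ± 0.08 in Molm-14.

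Among genes of end recognition and resection, EXO1 and RBBP8 fell in both lines, while the 3 genes of the MRE11 complex were not called. EXO1, the nuclease of long-range resection, had 73.3, 73.9, 75.5 and 71 CPM at 2 h, 7.07, 6.36 and 6.35 CPM at 24 h and 62.8, 71.5, 65.2 and 65.5 CPM in DMSO in OCI-AML3. Molm-14 libraries gave EXO1 values of 86.8, 87.7, 90.8 and 85.8 CPM at 2 h, 25.1, 27.7, 28 and 27.3 CPM at 24 h and 87.3, 82.4, 80.1 and 84 CPM in DMSO. For EXO1, the 24 h libraries lay below every DMSO library in both lines, and the 2 h libraries overlapped the DMSO libraries in both lines. EXO1 fell by 3.33 ± 0.05 on the log2 scale in OCI-AML3 (adjusted p = 5.38e-30) and by 1.63 ± 0.05 in Molm-14 (adjusted p = 1.27e-22) at 24 h. In OCI-AML3, RBBP8, also called CtIP, which starts resection with the MRE11 complex, was at 20.8, 23.5, 24.2 and 20.3 CPM at 2 h, 5.9, 5.18 and 5.86 CPM at 24 h and 24.3, 26.9, 26.1 and 27 CPM in DMSO. RBBP8 in Molm-14 was at 50.3, 54, 51.3 and 53.4 CPM at 2 h, 25.6, 26.8, 26.7 and 28.1 CPM at 24 h and 67.7, 56.5, 60 and 62.1 CPM in DMSO. The RBBP8 values of the 24 h and the 2 h libraries lay below every DMSO library in both lines. At 24 h RBBP8 fell by 2.21 ± 0.07 (log2, adjusted p = 8.39e-23) in OCI-AML3 and by 1.20 ± 0.06 (adjusted p = 1.35e-16) in Molm-14.

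The MRE11 complex, which binds broken ends and activates ATM, showed differences of less than 2-fold for each of its 3 genes, and NBN had the most negative of them in both lines. MRE11, the nuclease, had 80.1, 82.9, 84.1 and 82.4 CPM at 2 h, 68.9, 66.8 and 70.7 CPM at 24 h and 63.1, 64.6, 62.9 and 66.8 CPM in DMSO in OCI-AML3. Molm-14 libraries gave MRE11 values of 73.1, 77.6, 77 and 76 CPM at 2 h, 77.3, 72.7, 72.7 and 74 CPM at 24 h and 76.9, 75.4, 78.1 and 81.8 CPM in DMSO. For MRE11, the 2 h libraries lay above every DMSO library in OCI-AML3, and the 24 h libraries all but touched them. The lowest 24 h value there was 66.83 CPM and the highest DMSO value 66.8 CPM. In Molm-14 the MRE11 values of the 24 h and the 2 h libraries overlapped the DMSO libraries. Log2 differences of MRE11 from DMSO at 24 h were 0.10 ± 0.04 in OCI-AML3 (adjusted p = 0.037) and -0.07 ± 0.04 in Molm-14 (adjusted p = 0.0915), neither of them a 2-fold change. In OCI-AML3, RAD50, the ATPase, was at 57.5, 56.3, 63.6 and 59.3 CPM at 2 h, 64.3, 72.1 and 74.5 CPM at 24 h and 51.9, 57.7, 55.8 and 64.7 CPM in DMSO. RAD50 in Molm-14 was at 50.1, 50.9, 56.4 and 57.3 CPM at 2 h, 59.2, 57.5, 59.3 and 67 CPM at 24 h and 57.3, 46.8, 61.4 and 58.3 CPM in DMSO. The RAD50 values of the 24 h and the 2 h libraries overlapped the DMSO libraries in both lines. At 24 h the log2 difference of RAD50 from DMSO was 0.29 ± 0.08 (adjusted p = 0.00138) in OCI-AML3 and 0.12 ± 0.07 (adjusted p = 0.128) in Molm-14, both under 2-fold. NBN, the adaptor, had 95, 95.4, 99.4 and 86.5 CPM at 2 h, 48.4, 57.8 and 55.5 CPM at 24 h and 92.6, 105, 101 and 106 CPM in DMSO in OCI-AML3. Molm-14 libraries gave NBN values of 136, 137, 138 and 140.5 CPM at 2 h, 88, 86.8, 88.7 and 89.3 CPM at 24 h and 172, 154, 164 and 162 CPM in DMSO. For NBN, the 24 h libraries lay below every DMSO library in both lines, and the 2 h libraries overlapped the DMSO libraries in OCI-AML3 and lay below every DMSO library in Molm-14. Log2 differences of NBN from DMSO at 24 h were -0.91 ± 0.06 in OCI-AML3 (adjusted p = 1.31e-15) and -0.89 ± 0.05 in Molm-14 (adjusted p = 6.71e-16), neither of them a 2-fold change. The 95% intervals of the 24 h log2 difference were 0.01 to 0.18 in OCI-AML3 and -0.15 to 0.01 in Molm-14 for MRE11, and 0.13 to 0.45 and -0.03 to 0.27 for RAD50.

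The checkpoint genes moved in opposite directions: CHEK1 fell in both lines and ATM rose in OCI-AML3. In OCI-AML3, CHEK1, the effector kinase of the replication checkpoint, was at 64.9, 62.3, 62.1 and 71.7 CPM at 2 h, 9.08, 11.4 and 11.5 CPM at 24 h and 58.4, 64.2, 61.5 and 61.3 CPM in DMSO. CHEK1 in Molm-14 was at 68.9, 73.2, 71.4 and 75.2 CPM at 2 h, 25.8, 25.5, 27 and 26 CPM at 24 h and 76.3, 68.9, 73.6 and 73.8 CPM in DMSO. The CHEK1 values of the 24 h libraries lay below every DMSO library in both lines, whereas the 2 h libraries overlapped the DMSO libraries in both lines. At 24 h CHEK1 fell by 2.53 ± 0.07 (log2, adjusted p = 5.18e-25) in OCI-AML3 and by 1.49 ± 0.06 (adjusted p = 1.39e-19) in Molm-14. ATM, the kinase that answers double-strand breaks, had 106, 98.2, 107 and 85.6 CPM at 2 h, 214, 218 and 183 CPM at 24 h and 68.8, 76.2, 53.3 and 80.8 CPM in DMSO in OCI-AML3. Molm-14 libraries gave ATM values of 71.5, 78.5, 73.2 and 71.1 CPM at 2 h, 134, 147, 131 and 144 CPM at 24 h and 75.4, 73.2, 88.7 and 74.4 CPM in DMSO. For ATM, the 24 h libraries lay above every DMSO library in both lines, and the 2 h libraries lay above every DMSO library in OCI-AML3 and overlapped them in Molm-14. ATM rose by 1.57 ± 0.11 on the log2 scale in OCI-AML3 at 24 h (adjusted p = 1.02e-11), and its log2 difference in Molm-14 was 0.84 ± 0.10 (adjusted p = 1.27e-07). In OCI-AML3, ATR, the kinase that answers stalled forks, was at 37.8, 40.2, 38 and 33.5 CPM at 2 h, 25.7, 28.9 and 28.5 CPM at 24 h and 42.4, 46.5, 40.9 and 48.9 CPM in DMSO. ATR in Molm-14 was at 49.1, 47.5, 46 and 45.1 CPM at 2 h, 39.5, 43, 43.2 and 44.6 CPM at 24 h and 69.3, 63.7, 67.6 and 66.9 CPM in DMSO. The ATR values of the 24 h and the 2 h libraries lay below every DMSO library in both lines. At 24 h the log2 difference of ATR from DMSO was -0.69 ± 0.06 (adjusted p = 4.68e-11) in OCI-AML3 and -0.65 ± 0.06 (adjusted p = 3.72e-11) in Molm-14, both under 2-fold. TOPBP1, the activator of ATR, fell by 1.12 ± 0.05 in OCI-AML3 (-0.95 and no call with libraries scaled to their totals) and was at -0.75 ± 0.05 in Molm-14. CHEK2, the kinase downstream of ATM, was at -0.74 ± 0.07 in OCI-AML3 and -0.20 ± 0.06 in Molm-14, and near-identical copies of it in the genome make its counts uncertain.

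In mismatch repair, MSH6 fell in OCI-AML3 and PMS2 was not called. MSH6, which recognises single mismatches, had 77.1, 82.8, 78.2 and 70.7 CPM at 2 h, 31.5, 29.1 and 31.4 CPM at 24 h and 103, 102, 105 and 114 CPM in DMSO in OCI-AML3. Molm-14 libraries gave MSH6 values of 107, 105, 102 and 105 CPM at 2 h, 55.1, 57.5, 56.3 and 58.8 CPM at 24 h and 106, 101, 114 and 104 CPM in DMSO. For MSH6, the 24 h libraries lay below every DMSO library in both lines, and the 2 h libraries lay below every DMSO library in OCI-AML3 and overlapped them in Molm-14. MSH6 fell by 1.79 ± 0.05 on the log2 scale in OCI-AML3 at 24 h (adjusted p = 1.23e-23), and its log2 difference in Molm-14, -0.90 ± 0.05, did not reach 2-fold (adjusted p = 1.4e-16). In OCI-AML3, PMS2, an endonuclease of this pathway, whose counts are uncertain because of near-identical pseudogenes, was at 58.3, 63, 60.3 and 59.4 CPM at 2 h, 54.4, 56.2 and 56.2 CPM at 24 h and 59.9, 60.7, 60.1 and 61 CPM in DMSO. PMS2 in Molm-14 was at 40.7, 43.5, 38.2 and 41.5 CPM at 2 h, 38.9, 44, 43.2 and 43.1 CPM at 24 h and 52, 40.6, 43.2 and 46 CPM in DMSO. The PMS2 values of the 24 h libraries lay below every DMSO library in OCI-AML3 and overlapped them in Molm-14, whereas the 2 h libraries overlapped the DMSO libraries in both lines. At 24 h the log2 difference of PMS2 from DMSO was -0.12 ± 0.06 (adjusted p = 0.0723) in OCI-AML3 and -0.10 ± 0.06 (adjusted p = 0.116) in Molm-14, both under 2-fold.

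Classical end joining rejoins ends without a template, and 4 of its genes are among the 43. The 2 Ku genes and PRKDC fell in OCI-AML3 and LIG4 rose, and in Molm-14 only XRCC6 of these 4 was called. XRCC5, the larger Ku subunit, had 482, 478, 476 and 441 CPM at 2 h, 151, 154 and 166 CPM at 24 h and 553, 549.8, 558 and 550.2 CPM in DMSO in OCI-AML3. Molm-14 libraries gave XRCC5 values of 457, 462, 478 and 497 CPM at 2 h, 279.9, 285, 307 and 306 CPM at 24 h and 524, 499, 519.6 and 511 CPM in DMSO. For XRCC5, the 24 h and the 2 h libraries lay below every DMSO library in both lines. XRCC5 fell by 1.82 ± 0.04 on the log2 scale in OCI-AML3 at 24 h (adjusted p = 5.57e-26), and its log2 difference in Molm-14, -0.80 ± 0.04, did not reach 2-fold (adjusted p = 1.64e-17). In OCI-AML3, XRCC6, the smaller Ku subunit, was at 598, 600.5, 599 and 576 CPM at 2 h, 215, 209.7 and 208 CPM at 24 h and 678, 644, 705 and 632 CPM in DMSO. XRCC6 in Molm-14 was at 579, 574, 581 and 588 CPM at 2 h, 280.5, 281, 302 and 290 CPM at 24 h and 617, 603, 609 and 598 CPM in DMSO. The XRCC6 values of the 24 h and the 2 h libraries lay below every DMSO library in both lines. At 24 h XRCC6 fell by 1.65 ± 0.04 (log2, adjusted p = 3.23e-26) in OCI-AML3 and by 1.07 ± 0.04 (adjusted p = 8.05e-22) in Molm-14. PRKDC, the catalytic subunit of DNA-PK, had 711, 725, 767 and 668 CPM at 2 h, 178, 184 and 188 CPM at 24 h and 742, 778, 708 and 848 CPM in DMSO in OCI-AML3. Molm-14 libraries gave PRKDC values of 996, 928, 898 and 890.2 CPM at 2 h, 449.5, 436, 467 and 497 CPM at 24 h and 844, 875, 918 and 866 CPM in DMSO. For PRKDC, the 24 h libraries lay below every DMSO library in both lines, and the 2 h libraries overlapped the DMSO libraries in both lines. PRKDC fell by 2.07 ± 0.05 on the log2 scale in OCI-AML3 at 24 h (adjusted p = 8.18e-25), and its log2 difference in Molm-14, -0.92 ± 0.05, did not reach 2-fold (adjusted p = 1.81e-16). In OCI-AML3, LIG4, the ligase that seals the ends, was at 14.5, 14.3, 15.2 and 13.2 CPM at 2 h, 27.6, 32.4 and 33.1 CPM at 24 h and 13, 14.3, 13.8 and 16.4 CPM in DMSO. LIG4 in Molm-14 was at 35.1, 32.9, 38.4 and 34.2 CPM at 2 h, 38.3, 37.4, 34.3 and 34.8 CPM at 24 h and 42.8, 37.6, 43.6 and 44.8 CPM in DMSO. The LIG4 values of the 24 h libraries lay above every DMSO library in OCI-AML3 and overlapped them in Molm-14, whereas the 2 h libraries overlapped the DMSO libraries in both lines. LIG4 rose by 1.11 ± 0.08 on the log2 scale in OCI-AML3 at 24 h (adjusted p = 7.24e-14), and its log2 difference in Molm-14 was -0.22 ± 0.07 (adjusted p = 0.00837).

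Of the 2 genes of single-strand break repair, PARP1 fell in OCI-AML3 and XRCC1 was called in neither line. PARP1, the sensor that builds poly(ADP-ribose) at breaks, had 343, 343, 359 and 360 CPM at 2 h, 171, 177 and 176 CPM at 24 h and 412, 405, 393 and 404 CPM in DMSO in OCI-AML3. Molm-14 libraries gave PARP1 values of 514, 491, 481 and 493 CPM at 2 h, 281, 284, 289 and 296 CPM at 24 h and 495, 482, 503 and 499.6 CPM in DMSO. For PARP1, the 24 h libraries lay below every DMSO library in both lines, and the 2 h libraries lay below every DMSO library in OCI-AML3 and overlapped them in Molm-14. PARP1 fell by 1.21 ± 0.04 on the log2 scale in OCI-AML3 at 24 h (adjusted p = 1.49e-23), and its log2 difference in Molm-14, -0.78 ± 0.03, did not reach 2-fold (adjusted p = 3.41e-19). In OCI-AML3, XRCC1, the scaffold that gathers ligase and polymerase at nicks, was at 37, 35.5, 38.6 and 40.3 CPM at 2 h, 29.96, 29.5 and 27.6 CPM at 24 h and 33.6, 30.3, 31.4 and 28.1 CPM in DMSO. XRCC1 in Molm-14 was at 29.3, 27, 25.6 and 28.1 CPM at 2 h, 33.7, 34.6, 34.5 and 33.4 CPM at 24 h and 34.6, 35.8, 31.3 and 35.1 CPM in DMSO. The XRCC1 values of the 24 h libraries overlapped the DMSO libraries in both lines, whereas the 2 h libraries lay above every DMSO library in OCI-AML3 and lay below every DMSO library in Molm-14. At 24 h the log2 difference of XRCC1 from DMSO was -0.09 ± 0.06 (adjusted p = 0.201) in OCI-AML3 and -0.0043 ± 0.06 (adjusted p = 0.961) in Molm-14, both under 2-fold.

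The response at 24 h differed between the lines for 17 of the 43 genes: it was more negative in OCI-AML3 for 16 and more positive for LIG4, by at least 2-fold at an adjusted p below 0.05, where 9.75% and 8.09% of all genes were called in those directions. Of the 16, 13 were cell-cycle-linked and 3 (XRCC3, XRCC5 and PRKDC) were not. The largest differences, OCI-AML3 minus Molm-14, were those of RAD54B at -2.05 ± 0.12 (adjusted p = 5.01e-15), RAD54L at -1.87 ± 0.07 (adjusted p = 3.59e-19) and EXO1 at -1.70 ± 0.07 (adjusted p = 2e-18). That of RAD54B is uncertain because of the exons it shares with FSBP. The difference of XRCC3 is also uncertain, because of its overlap with KLC1. For LIG4 the difference was 1.33 ± 0.11 (adjusted p = 6.72e-12), and for ATM, which was above DMSO in both lines, it was 0.73 ± 0.15 (adjusted p = 0.000213), under 2-fold. The median difference was -1.02 over cell-cycle-linked genes and -0.08 over the others, against -0.05 over all genes. With the narrower cell-cycle-linked group, the medians were -1.07 and -0.40, and with libraries scaled to their totals that of the others was -0.0057. In 37 of 43 genes the OCI-AML3 value was the more negative, as it was in 53.2% of all genes. With libraries scaled to their totals 12 genes were called more negative in OCI-AML3 (FANCG, RBBP8, CHEK1 and XRCC5 fell short of 2-fold), and with a pseudocount of 1 CPM 11 were (FANCB, FANCG, RAD51AP1, RBBP8 and CHEK1 fell short). Leaving out 1 library took 5 of the called differences under 2-fold. These were CHEK1 (-0.93) and FANCB (-0.98) without OCI-AML3 24 h replicate 1, XRCC5 (-0.990 to -0.998) without that library or Molm-14 24 h replicate 3 or 4, FANCG (-0.980 to -0.999) without OCI-AML3 24 h replicate 1 or 2, OCI-AML3 DMSO replicate 3, Molm-14 24 h replicate 1 or Molm-14 DMSO replicate 2 or 4, and RBBP8 (-0.949 to -0.998) without OCI-AML3 24 h replicate 2, OCI-AML3 DMSO replicate 2 or 4, Molm-14 24 h replicate 4 or Molm-14 DMSO replicate 2 or 3. At 2 h the difference reached 2-fold for 0 genes, with 3.52% of all genes lower and 2.12% higher, while 12 genes were higher and 5 lower at an adjusted p below 0.05 alone (shares of all genes 19.2% and 19.5%) and 23 passed an unadjusted p below 0.05, as 46.6% of all genes did. The lowest of these 2 h differences was FANCE at -0.74 ± 0.08, which had opposite signs in the lines (-0.24 in OCI-AML3 and 0.50 in Molm-14).

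**Figure D3:**
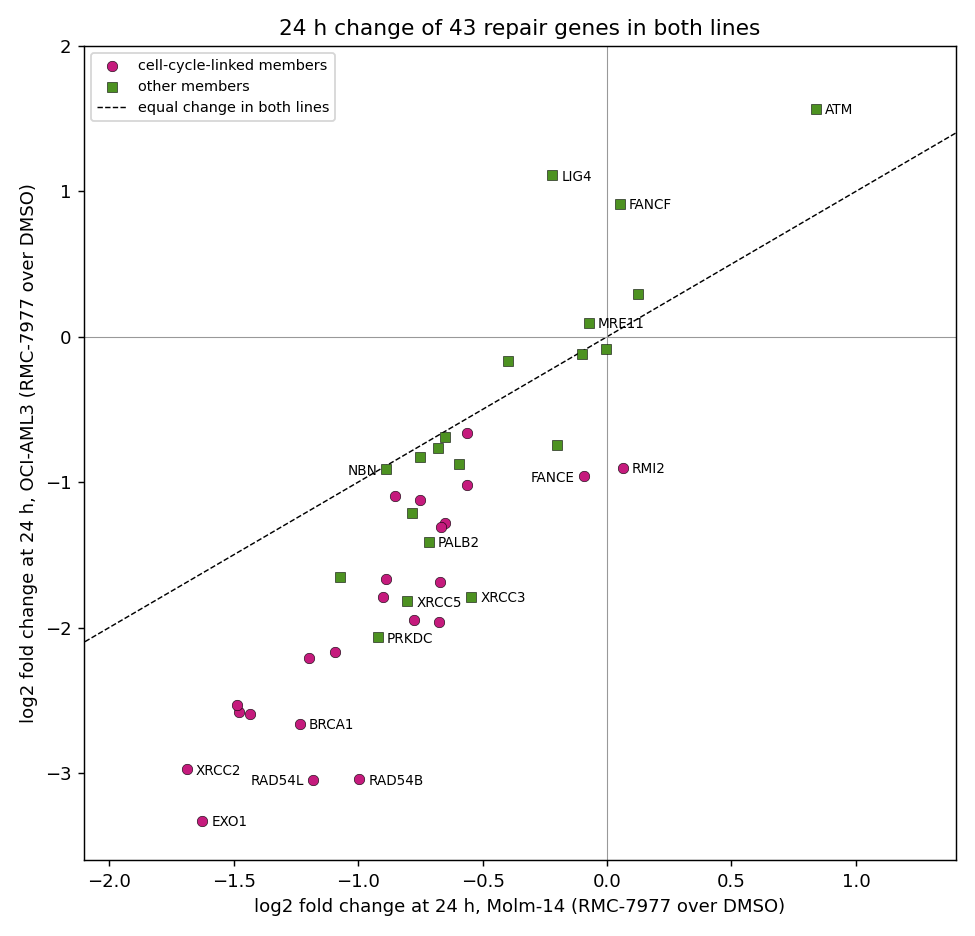
Log2 fold change at 24 h of each of the 43 genes in OCI-AML3 (vertical axis) against that in Molm-14 (horizontal axis), with cell-cycle-linked and other genes marked. Below the dashed line of equal change lie 37 genes, and ATM, FANCF and LIG4 are among those above it.

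Comparing 24 h with 2 h in the same line gives a contrast that does not involve the DMSO group. In it, too, time with drug and time in culture cannot be told apart. In OCI-AML3, 27 of the 43 genes were lower at 24 h than at 2 h and 2 (ATM and LIG4) higher, where 10.9% and 11.6% of all genes were called. ATM went under 2-fold (0.98) and the count of higher genes to 1 without OCI-AML3 2 h replicate 4. FANCC, PARP1 and RMI1 went under 2-fold with libraries scaled to their totals, which left 24 lower, and FANCC or PARP1 also did without single libraries (-0.976 to -0.998). EXO1 was lower by 3.48 ± 0.05, RAD54L by 3.37 ± 0.05 and RAD54B by 3.06 ± 0.09 (log2 ± SE). In Molm-14, 12 were lower and 0 higher, where 3.38% and 7.25% of all genes were called, and EXO1 was lowest at -1.70 ± 0.05. FANCB, RAD54B, XRCC6 and PRKDC went under 2-fold with libraries scaled to their totals (-0.985 to -0.927) and without Molm-14 24 h replicate 2 (-0.9998 to -0.947), and 8 were then called lower. Some of these 4 were also under 2-fold without Molm-14 24 h replicate 1 or 3 or 2 h replicate 1, 3 or 4, each of which left 11. PALB2, already below DMSO at 2 h, differed between 24 h and 2 h by -0.72 ± 0.11 in OCI-AML3 and 0.0049 ± 0.10 in Molm-14 (adjusted p = 6.28e-07 and 0.978). BRIP1, above DMSO at 2 h, was lower at 24 h than at 2 h by 1.67 ± 0.07 in OCI-AML3 and by 1.22 ± 0.06 in Molm-14, and both differences were called.

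In DMSO the lines already differed in some of these genes. OCI-AML3 was higher than Molm-14 in 1 of the 43, RMI2 at 2.04 ± 0.08, and lower in 5, FANCF at -1.74 ± 0.09, LIG4 at -1.55 ± 0.07, RBBP8 at -1.24 ± 0.06, FANCL at -1.10 ± 0.05 and FANCI at -1.01 ± 0.04, where 17.9% and 12.2% of all genes were called. FANCI was just under 2-fold with libraries scaled to their totals (-0.998) and without OCI-AML3 DMSO replicate 3 (-0.999) or Molm-14 DMSO replicate 3 (-0.999). These genes were chosen after their values were seen, apart from RBBP8 and FANCI. RMI2 averaged 30.5 CPM in OCI-AML3 DMSO and 7.43 CPM in Molm-14 DMSO. EXO1, RAD54L, RAD54B and BRCA1 differed between the lines in DMSO by -0.33, 0.08, 0.34 and -0.01, all under 2-fold.

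Other genes of the same pathways were set beside these, from lists chosen with earlier results known. Of all genes, 17.1% were called lower in OCI-AML3 and 6.57% in Molm-14 at 24 h. Of 41 further Fanconi and recombination genes, 16 fell in OCI-AML3 at 24 h (median -0.51) and 9 in Molm-14 (median -0.47). In either line 0 of them were called higher. Some were above DMSO by less than 2-fold, such as RECQL5 in OCI-AML3, at means of 86.35 CPM at 24 h and 46.12 CPM in DMSO. UBE2T, the E2 enzyme of the Fanconi ligase, was at -2.76 ± 0.06 in OCI-AML3 and -1.64 ± 0.06 in Molm-14. Of 16 further checkpoint and damage signalling genes, 7 fell in OCI-AML3 and 2 in Molm-14. CLSPN, the CHEK1 adaptor, had the smallest adjusted p of these in OCI-AML3 and was at -3.91 ± 0.06 and -1.43 ± 0.06. Of 22 further mismatch, end-joining and base excision genes, 7 fell in OCI-AML3 and 2 in Molm-14. Replication genes fell in 30 of 31 cases in OCI-AML3 (median -2.62) and 22 in Molm-14 (median -1.25), and mitosis genes in 22 of 22 (median -1.95) and 7 (median -0.87). The cell-cycle-linked repair genes, with medians of -1.95 and -0.89, lay close to the mitosis genes and were less negative than the replication genes in both lines, whereas the other repair genes, at -0.75 and -0.57, were nearer the further recombination genes. The share of the replication and mitosis changes in those of the repair genes was not tested.

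**Figure D4:**
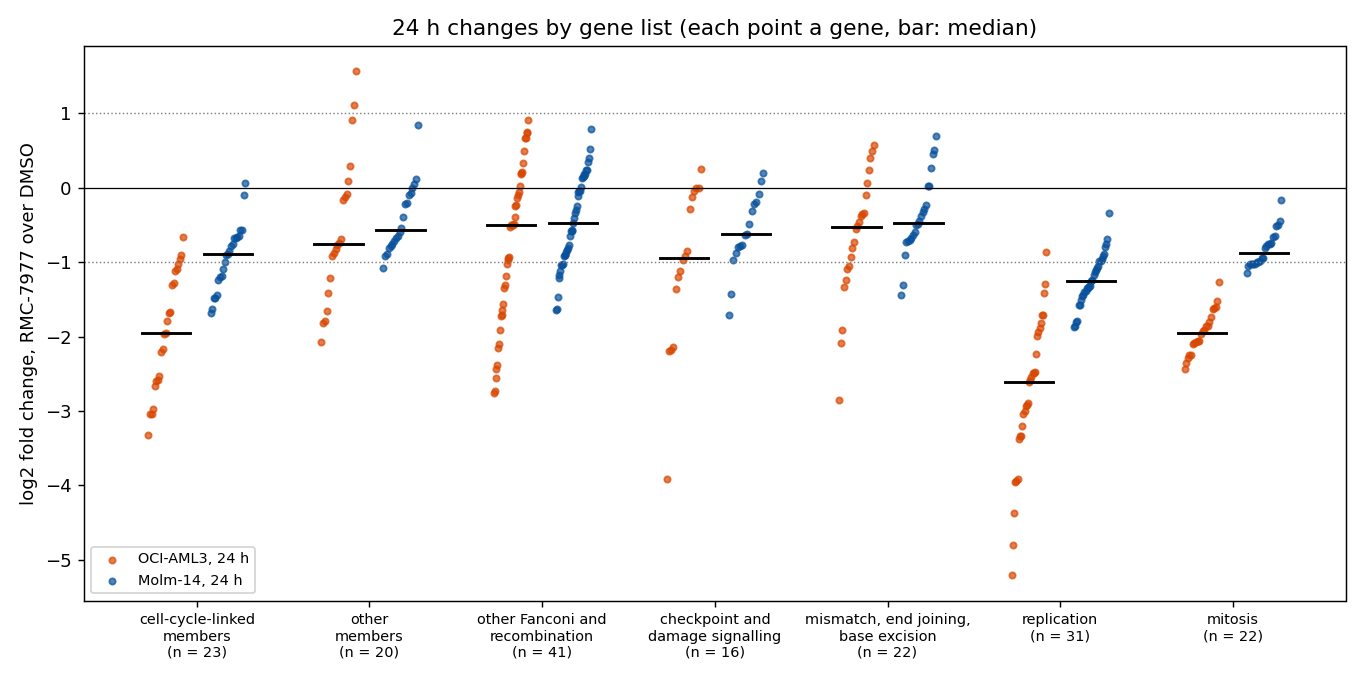
Log2 fold change at 24 h against DMSO for the genes of each list (points) with the list median (bar), in OCI-AML3 and Molm-14. The medians of replication genes (-2.62 in OCI-AML3 and -1.25 in Molm-14) and of cell-cycle-linked repair genes (-1.95 and -0.89) lie below those of the other repair genes (-0.75 and -0.57).

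Some values could hold reads of an overlapping gene, because the strand setting of the counting is not given in the sources used here. By GENCODE v29 exons, 76.7% of the exonic bases of XRCC3 overlap KLC1 on the opposite strand, which was at -0.09 ± 0.04 in OCI-AML3 and 0.44 ± 0.04 in Molm-14 at 24 h. RAD54B shares 59.1% of its exonic bases with FSBP on the same strand, and FSBP was at -2.90 ± 0.15 and -1.79 ± 0.14, so the values of these 2 genes are uncertain. RAD54L overlaps LRRC41 in 25.1%, FANCA overlaps ZNF276 in 23.6%, FANCL overlaps VRK2 in 18.7% and MSH6 overlaps FBXO11 in 16.2% of their exonic bases, all on opposite strands. LRRC41 was at 0.36 ± 0.06 and 0.54 ± 0.05, against the falls of RAD54L in both lines. CHEK2, FANCI, MRE11, CHEK1 and ATM overlap another measured gene in at most 6.7% of their exonic bases.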

How the data were processed

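Deposited values were log2 CPM from the authors for 13033 genes in 23 libraries. Reads of the poly(A) libraries were processed on hg38 with tools that include Trimmomatic 0.36, STAR 2.7.8a and RSEM 1.3.3, and edgeR 3.24.3 is also named, per the submitters' processing notes. Neither the strand setting nor any low-count filter is given in the sources used here. All libraries shared a lowest value of -3.26, equal to 0.105 CPM, so the values hold a prior count and fold changes understate those of genes with few reads. CPM levels of single genes are the deposited values with the log undone and still hold the prior, which was subtracted only in the sums over marker lists. Effective library size, which can differ from the number of reads, was recovered from the spacing of low values: 15.4 to 22.4 M (median 18.4). Of the low values, 74.5% to 82.7% were within 0.05 of a whole read, so no count test was used for the main results.

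Limma 3.58.1 in R 4.3.3 fitted 6 group means over the 23 libraries (empirical Bayes with trend and robust options), with Benjamini-Hochberg adjustment over 13033 genes, and the procedure was tested on simulated data. Contrasts were 2 h and 24 h of drug against DMSO within a line, 24 h against 2 h, the difference in response between the lines (OCI-AML3 minus Molm-14), and the lines in DMSO. The 2 h and 24 h comparisons of a line share DMSO libraries. A call needs an adjusted p below 0.05 and a change of 2-fold or more.

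The genes, their cell-cycle-linked group, the lists and the motif words were chosen with earlier results of these data known. Values in every library are given for 20 of the 28 genes called against DMSO or in a difference in response between the lines. These 20 had the smallest adjusted p in OCI-AML3 at 24 h. They are also given for 8 of 9 genes outside the cell-cycle-linked group that were called in no comparison of any kind, those with the highest level. Values in every library of PALB2, ATM and LIG4, and the choice of the other genes named for single values, were added after the values were seen. Genes of the lists are named among the 5 with the smallest adjusted p, apart from RECQL5, which was chosen after its values were seen. Single values of some list genes are not reported here. Alternatives were 2 other scalings, a pseudocount of 1 CPM, a filter at a mean of 5 CPM in 1 group, no trend or robust options, limma voom on recovered reads, 1 line at a time, a replicate block, no fold limit, the narrower cell-cycle-linked group and leaving out each library.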

Additional observations from a re-analysis of the deposited data

Results flagged for a closer look

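In 12 of 215 pairs of a gene and a group of 4 libraries, 1 library stood far from the others by Dixon's test at the 95% level, which chance alone gives in about 1 in 20 groups. FANCM was lowest in Molm-14 DMSO replicate 4, at 23.7 CPM against 28 CPM in the nearest library of that group. BRCA1 was lowest in Molm-14 24 h replicate 1, at 39.9 CPM against 42.2 CPM in the nearest library of that group. BARD1 was lowest in Molm-14 2 h replicate 1, at 31.8 CPM against 36.5 CPM in the nearest library of that group. BARD1 was highest in Molm-14 DMSO replicate 1, at 33.5 CPM against 30.3 CPM in the nearest library of that group. BRIP1 was lowest in Molm-14 2 h replicate 3, at 74.1 CPM against 77.3 CPM in the nearest library of that group. XRCC3 was lowest in Molm-14 24 h replicate 4, at 43 CPM against 47.4 CPM in the nearest library of that group. XRCC3 was highest in OCI-AML3 2 h replicate 4, at 55.2 CPM against 50.6 CPM in the nearest library of that group. ATM was highest in Molm-14 DMSO replicate 3, at 88.7 CPM against 75.4 CPM in the nearest library of that group. TOPBP1 was lowest in Molm-14 24 h replicate 4, at 87 CPM against 89 CPM in the nearest library of that group. TOPBP1 was lowest in OCI-AML3 2 h replicate 4, at 127 CPM against 136 CPM in the nearest library of that group. XRCC5 was lowest in OCI-AML3 2 h replicate 4, at 441 CPM against 476 CPM in the nearest library of that group. XRCC6 was lowest in OCI-AML3 2 h replicate 4, at 576 CPM against 599 CPM in the nearest library of that group. Of these 12, 4 were in OCI-AML3 2 h replicate 4, and without that library the 2 h comparison in OCI-AML3 still called 0 of the 43 genes. ATM in Molm-14 DMSO replicate 3 was a single high value, and the 24 h values of ATM in Molm-14 lay above it.

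The 24 h response differed between the lines by a test of the difference itself for 17 genes. The log2 difference, OCI-AML3 minus Molm-14, was negative for FANCB (-1.16), FANCG (-1.02), FANCI (-1.07), BRCA1 (-1.43), BRCA2 (-1.29), XRCC2 (-1.29), XRCC3 (-1.24), RAD51AP1 (-1.10), RAD54L (-1.87), RAD54B (-2.05), BLM (-1.17), RBBP8 (-1.01), EXO1 (-1.70), CHEK1 (-1.04), XRCC5 (-1.02) and PRKDC (-1.15). It was positive for LIG4 (1.33). All 17 passed an adjusted p below 0.05 in limma. Those of XRCC3 and RAD54B are uncertain because of genes that overlap them. The OCI-AML3 24 h group had 3 libraries and the other groups 4.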

How the results depend on the processing

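The counts of called genes were computed under 10 other settings and with each of the 23 libraries left out in turn. Of 291 single-gene values with a direction, 1 reversed: FANCL in OCI-AML3 at 24 h went to 0.0039 with libraries scaled to their totals. Leaving aside the setting with no fold limit, 20 of 102 called values went under 2-fold in at least 1 setting and 4 values gained a call. For leaving out 1 library, the number of the 43 genes called lower ran from 25 to 26 in OCI-AML3 and from 10 to 11 in Molm-14 at 24 h, and the number called higher at 24 h against 2 h in OCI-AML3 ran from 1 to 2. With no fold limit, the counts against DMSO became 5 higher in OCI-AML3 at 24 h, 35 lower and 1 higher in Molm-14 at 24 h, 11 lower and 14 higher in OCI-AML3 at 2 h, and 15 lower and 10 higher in Molm-14 at 2 h. By group, 13 other genes were then lower and 5 higher in OCI-AML3 at 24 h, and 21 cell-cycle-linked and 14 other genes lower and 1 other gene higher in Molm-14 at 24 h. For 24 h against 2 h the same rule gave 4 higher in OCI-AML3 and 34 lower and 3 higher in Molm-14. The differences in response became 5 lower and 12 higher at 2 h and 30 lower and 5 higher at 24 h, with 22 cell-cycle-linked and 8 other genes lower and 5 other genes higher. OCI-AML3 against Molm-14 in DMSO became 23 lower and 10 higher. Under this rule 42% of all genes were lower in OCI-AML3 and 38.6% in Molm-14 at 24 h. Shares of all genes are not given here for the higher counts at 24 h, 24 h against 2 h, the 24 h difference or DMSO. Those counts are therefore not set apart from the genes at large. With libraries scaled to their totals, 0 other genes were lower in Molm-14 at 24 h, and all calls in OCI-AML3 at 2 h became 509 higher and 384 lower, against 421 and 437. In Molm-14 at 24 h, 1727 genes were higher and 629 lower with that scaling, against 1481 and 856. With the narrower cell-cycle-linked group, 13 of its genes and 13 others were lower in OCI-AML3 at 24 h, 4 others in Molm-14, and 8 and 8 in the difference at 24 h. A pseudocount of 1 CPM gave 8 cell-cycle-linked genes lower in that difference. Replicate numbers did not pair the libraries: over 55 pairs with the same number in different groups the correlation of deviations ran from -0.484 to 0.401, 21 were above 0.1, and 0 libraries correlated best with their own number throughout. With the replicate block the counts were those of the fit without it, such as 26 lower in OCI-AML3 and 10 lower in Molm-14 at 24 h.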

Other observations

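Repair genes outside the 43 include several with changes of similar size at 24 h, taken from the 5 with the smallest adjusted p of each list in OCI-AML3. RFWD3, a ubiquitin ligase of the Fanconi pathway, was at -1.71 ± 0.04 in OCI-AML3 and -0.81 ± 0.04 in Molm-14 (log2 ± SE). RPA1, the large subunit of the single-strand binding protein, was at -1.30 ± 0.04 and -0.65 ± 0.03. RECQL4, a helicase, was at -2.09 ± 0.06 and -1.02 ± 0.06. TIMELESS and TIPIN, which form the fork protection complex, both fell in OCI-AML3. TIMELESS was at -2.14 ± 0.04 in OCI-AML3 and -0.79 ± 0.04 in Molm-14, and TIPIN at -2.19 ± 0.09 and -1.71 ± 0.08. H2AX, the histone variant that is phosphorylated at breaks, was at -2.17 ± 0.08 and -0.88 ± 0.08, and MDC1, which reads that mark, at -1.36 ± 0.05 and -0.62 ± 0.04. In base excision repair, the glycosylase UNG was at -2.85 ± 0.04 and -1.44 ± 0.04 and the glycosylase NTHL1 at -2.09 ± 0.10 and -0.71 ± 0.09. LIG1, the ligase that joins replicated fragments, was at -1.33 ± 0.06 and -0.91 ± 0.05, and PARP2, a second break sensor, at -1.23 ± 0.06 and -0.73 ± 0.06. All of these fell in OCI-AML3, the line in which they were picked by their adjusted p. Of them, TIPIN, UNG and RECQL4 also fell in Molm-14 by at least 2-fold at an adjusted p below 0.05.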
